A study of Mus musculus with 8 samples.

Results

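Transcripts of 10 genes of the bone morphogenetic protein (BMP) pathway were followed in the inferior and the superior mouse retina, with and without exposure to hyperoxia. The genes were the ligands *Bmp2* and *Bmp4*, the type I receptors *Bmpr1a* and *Bmpr1b*, the membrane pseudoreceptor *Bambi*, the secreted antagonists *Chrdl1* and *Smoc1*, the target genes *Id1* and *Id3*, and *Smad6*, a target that inhibits the pathway. A probe set stood for a gene where the platform annotation gave it exactly 1 symbol, equal to that gene's. Each of the 10 genes had 1 such probe set, out of 19938 genes with a probe set of this kind and 28853 probe sets in all.

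Retinal RNA was hybridised to 8 arrays of the Affymetrix Mouse Gene 1.0 ST design, on which a probe set pools several short exonic probes, with 2 arrays for each of 4 groups. The groups were the inferior retina of hyperoxia-exposed mice, the inferior retina of control mice, the superior retina of hyperoxia-exposed mice and the superior retina of control mice. All mice were of the C57BL/6J strain and lived in dim cyclic light. Mice entered 75% oxygen when 83 to 90 days old and stayed there for 14 days, while age-matched control mice were kept in normoxia. A sample held pooled RNA of 2 animals, 1 male and 1 female, and neither the labels nor the methods say whether the inferior and superior samples came from the same animals. The replicates were run independently, so the replicate number may mark an experimental run, and values within each replicate number are therefore given beside the main differences.

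BMP ligands bind pairs of type I and type II receptors on the cell surface, and the receptors phosphorylate SMAD1, SMAD5 and SMAD9, which enter the nucleus with SMAD4 and switch on target genes such as the *Id* genes. Secreted antagonists hold ligands away from their receptors, while BAMBI and SMAD6 dampen the signal at the membrane and inside the cell. In the developing eye, BMP4 is made in the dorsal part of the optic cup, which becomes the superior retina, where it induces *Tbx5* and restricts the ventral gene *Vax2*. In the adult retina, BMP ligands and receptors are present in neurons, glia and pigment epithelium, and injury can alter BMP signalling.

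The arrays differed little in scale, with array medians between 6.98 and 7.05 log2 units. The 6 measured retina markers (*Gnat1*, *Pde6b*, *Prph2*, *Rlbp1*, *Glul* and *Pax6*) had log2 signals of 10.2 or more on every array. All 6 had a lower mean after hyperoxia in the inferior retina, and 1, the Muller glia gene *Glul*, passed the test there (-0.70 log2 units, adjusted p = 0.0416). *Gfap*, an intermediate filament gene of stressed Muller glia, was higher after hyperoxia by 2.42 log2 units in the inferior retina (adjusted p = 0.000259) and by 1.25 in the superior retina (adjusted p = 0.0296). Transcripts of tissues next to the retina were not even across the arrays. A list of 9 lens genes had a median deviation of 3.57 log2 units above its mean on 1 array, replicate 2 of the control inferior retina, against -0.80 to 0.07 on the other 7 arrays. A list of 11 retinal pigment epithelium genes had median deviations of 0.39 and 0.52 in the hyperoxia-exposed superior retina, against -0.90 and -0.07 in the control superior retina. In such bulk samples, fewer cells of a type and less RNA per cell cannot be told apart.

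None of the 10 BMP genes passed the test in any of the 7 comparisons made (limma, adjusted over all 28853 probe sets, threshold 0.05). After hyperoxia, 0 of the 10 were called in the inferior retina, where 0.492% of all probe sets were called, and 0 of the 10 in the superior retina, where 0.0173% were called. Between the inferior and the superior retina, 0 of the 10 were called in hyperoxia-exposed mice (0.139% of all probe sets) and 0 of the 10 in control mice (0% of all probe sets). For the difference between the hyperoxia changes in the inferior and the superior retina, 0 of the 10 were called, against 0.00347% of all probe sets. For the hyperoxia change averaged over both regions and for the regional difference averaged over both oxygen conditions, 0 of the 10 were called, against 0.568% and 0.0173% of all probe sets. The smallest adjusted p of any of these genes was 0.299, for *Bmp2* after hyperoxia in the inferior retina.

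**Figure D1:**
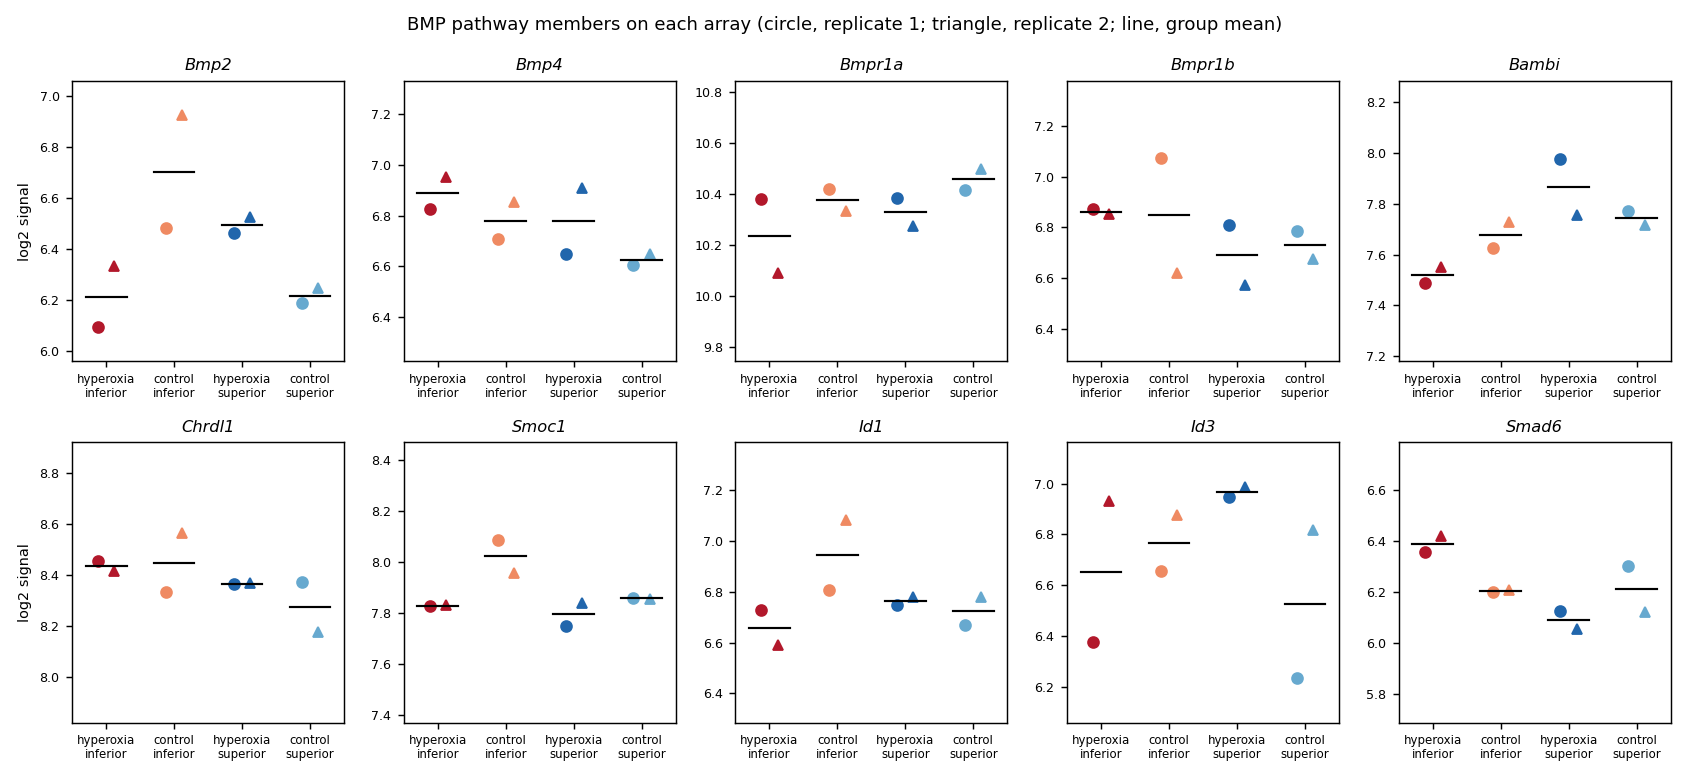
Log2 signal (vertical axis, each panel spanning the same number of log2 units) of the 10 BMP genes on each array, by group. Circles mark replicate 1, triangles replicate 2 and lines the group mean; *Bmp2* has its highest array in the control inferior retina, at 6.93.

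At an unadjusted p under 0.05, each of the 4 comparisons by oxygen or region counted 0 to 2 of the 10 BMP genes. In the inferior retina 2 of the 10 genes, *Bmp2* and *Id1*, were below this level after hyperoxia, both lower, against 9.39% of all probe sets. In the superior retina there were 0 of the 10, against 5.59%. Between the regions, 2 of the 10 were below it in hyperoxia-exposed mice, *Smad6* higher and *Bambi* lower in the inferior retina, against 8.5% of all probe sets. In control mice 1 of the 10 was below it, *Bmp2*, higher in the inferior retina, against 5.3%.

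The 10 genes as a group had a median change after hyperoxia of -0.13 log2 units in the inferior retina and 0.06 in the superior retina, while the medians over all probe sets were 0.01 and 0.00. Their median difference between the inferior and the superior retina was -0.03 in hyperoxia-exposed mice and 0.16 in control mice, while those over all probe sets were 0.00 in both. The median spread between replicates was like that of other probe sets, with a median residual SD of 0.115 log2 units for the 10 genes and 0.110 for all probe sets. Those of *Bmp2*, 0.1813, and *Bmpr1b*, 0.1845, were above 83.5% and 84.5% of all probe sets. *Smoc1* was the least variable, with a residual SD of 0.0556, and *Id3* the most, with 0.295, above 97.3% of all probe sets. The 95% intervals of the changes after hyperoxia reached from -0.83 (*Bmp2*) to 0.40 (*Smad6*) log2 units over the 10 genes in the inferior retina and from -0.39 (*Bmpr1a*) to 0.94 (*Id3*) in the superior retina.

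**Figure D2:**
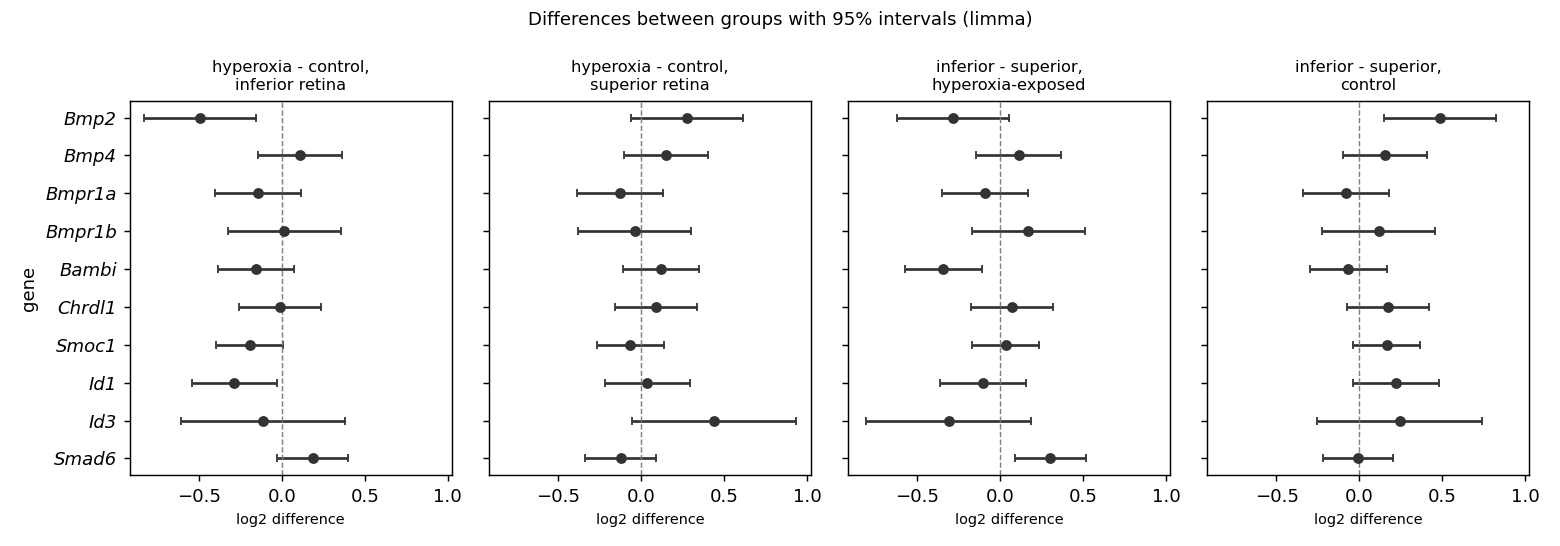
Log2 difference (horizontal axis) of each of the 10 BMP genes in 4 comparisons, named above each panel, with 95% intervals from limma. In the inferior retina after hyperoxia 8 of the 10 intervals include 0, and in the superior retina all 10 do.

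*Bmp2*, a secreted BMP ligand, showed the largest of the 10 changes in the inferior retina. Its log2 signal was 6.09 and 6.33 in the inferior retina after hyperoxia, against 6.48 and 6.93 in the control inferior retina. In the superior retina it was 6.46 and 6.52 after hyperoxia, against 6.19 and 6.25 in the control. The exposed arrays were thus below both control arrays in the inferior retina and above both in the superior retina. The order of the group means was control inferior, hyperoxia superior, control superior and hyperoxia inferior, and within this order the first pair of neighbours overlapped, the second did not, and the third did.

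After hyperoxia *Bmp2* differed by -0.49 ± 0.15 log2 units (SE, n = 2 arrays per group) in the inferior retina, a fold ratio of hyperoxia over control of 0.711, with an adjusted p of 0.299. In the superior retina it differed by 0.28 ± 0.15, a fold ratio of 1.21, with an adjusted p of 0.906. Genes of other tissue moved with the superior change: all 6 ciliary body and iris genes, *Msx1* of the BMP target list among them, had exposed arrays above the control arrays, with a median difference of 0.40 log2 units, as did 7 of 11 pigment epithelium genes, with a list median of 1.14. The median deviations of the ciliary body and iris list were 0.11 and 0.12 in the superior retina after hyperoxia, against -0.34 and -0.12 in the control superior retina, and the part of these transcripts in the *Bmp2* and *Bmp4* values was not tested. The difference between both changes, inferior minus superior, was -0.77 ± 0.21 log2 units, with a 95% interval of -1.25 to -0.29 and an adjusted p of 0.676. In the study's terms the fold margin, the inferior fold ratio minus the superior one, was -0.50. The study listed *Bmp2* among genes it chose by this measure on these same arrays, so this difference is not independent evidence of its direction. Over all probe sets, 5.2% had hyperoxia changes without overlap that ran in opposite directions in both regions, and *Bmp2* was the only 1 of the 10 BMP genes to do so.

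The inferior minus superior difference of *Bmp2* was -0.28 log2 units in hyperoxia-exposed mice and 0.49 in control mice, where the fold difference was 1.40. Neither passed the test, with adjusted p-values of 0.656 and 0.901. Within replicate 1 the hyperoxia change of *Bmp2* was -0.39 log2 units (inferior) and 0.28 (superior), and within replicate 2 it was -0.59 (inferior) and 0.28 (superior). As the groups did not overlap in either region, the same sign within both replicate numbers followed from that separation and adds nothing to it. The array with the highest *Bmp2* signal was also the control inferior array with the high lens transcripts. Without that array the inferior change was -0.27, with an adjusted p of 0.475, the control regional difference was 0.26, and the difference between the changes was -0.55; the part of lens transcripts in these values was not tested.

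**Figure D3:**
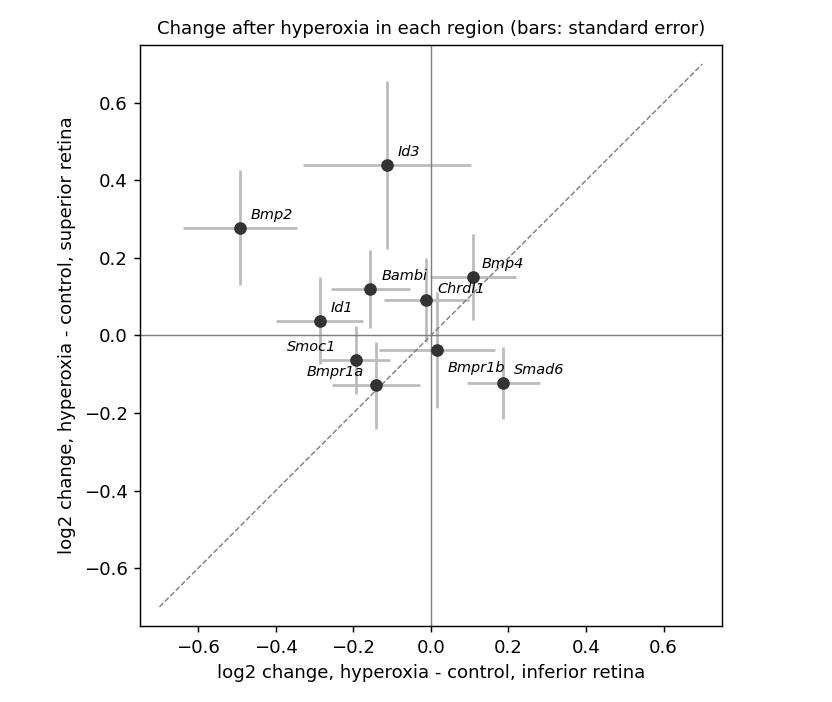
Log2 hyperoxia minus control of the 10 BMP genes, with inferior changes on the horizontal axis and superior changes on the vertical axis. Bars are standard errors and the dashed line marks equal change; *Bmp2*, at -0.49 and 0.28, lies farthest from it.

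*Bmp4* encodes the ligand of the dorsal optic cup. Its log2 signal was 6.83 and 6.95 in the inferior retina after hyperoxia, against 6.71 and 6.85 in the control inferior retina. The superior signal was 6.65 and 6.91 after hyperoxia, against 6.61 and 6.65 in the control. The exposed mean was above the control mean in both regions, by 0.11 and 0.15 log2 units, but the groups overlapped in the inferior retina, and in the superior retina the nearest exposed and control arrays both rounded to 6.65. Neither change passed the test (adjusted p = 0.816 and 0.925). In control mice the inferior arrays both lay above the superior ones, with a difference of 0.15 ± 0.11 (SE) and an adjusted p of 0.949. The 95% interval of that difference ran from -0.10 to 0.41.

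*Bmpr1a*, a type I receptor for BMP2 and BMP4, had a log2 signal of 10.4 and 10.1 in the inferior retina after hyperoxia, against 10.4 and 10.3 in the control inferior retina. Superior arrays had values of 10.4 and 10.3 after hyperoxia, against 10.4 and 10.5 in the control. The means were lower after hyperoxia by -0.14 and -0.13 log2 units, fold ratios of 0.906 (inferior) and 0.915 (superior), with adjusted p-values of 0.749 and 0.942. The groups overlapped in the inferior retina and lay apart in the superior retina. The inferior change rested on replicate 2 of the exposed group, without which it was 0.00. The retina marker list had median deviations of -0.05 and -0.13 in the inferior retina after hyperoxia, against -0.00 and 0.04 in the control inferior retina, and over the 8 arrays, which share groups and other tissue, *Bmpr1a* followed it with a Pearson r of 0.70; its part was not tested.

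*Bmpr1b* encodes another type I receptor. Its log2 signal was 6.87 and 6.85 in the inferior retina after hyperoxia, against 7.07 and 6.62 in the control inferior retina. Superior values were 6.81 and 6.58 after hyperoxia, against 6.78 and 6.68 in the control. The changes were 0.02 and -0.04 log2 units, with 95% intervals of -0.33 to 0.36 and -0.38 to 0.30. Both control inferior arrays lay outside the pair of exposed inferior arrays, 1 above and 1 below. In hyperoxia-exposed mice the inferior arrays were above the superior ones, by 0.17 ± 0.15 (SE), with an adjusted p of 0.816.

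*Bambi* encodes a receptor-like membrane protein that lacks the kinase and blocks signalling by type I receptors. Its log2 signal in hyperoxia-exposed mice was 7.49 and 7.55 in the inferior retina, against 7.97 and 7.76 in the superior retina. In control mice it was 7.62 and 7.73 in the inferior retina, against 7.77 and 7.72 in the superior retina. The exposed inferior arrays were the lowest of the 8. The regional difference was -0.34 ± 0.10 log2 units (SE) in hyperoxia-exposed mice, with a 95% interval of -0.58 to -0.11, and -0.07 in control mice, with one of -0.30 to 0.16. The adjusted p-values were 0.423 and 0.978.

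The *Bambi* difference in exposed mice was -0.49 within replicate 1 and -0.20 within replicate 2, and without replicate 1 of the exposed superior retina it was -0.23. After hyperoxia the mean was lower by a log2 difference of -0.16 in the inferior retina, where the groups did not overlap, and higher by 0.12 in the superior retina, where they did. The difference between these changes, -0.28 ± 0.14 (SE), had an adjusted p of 0.835. Averaged over both oxygen conditions, the inferior retina had less *Bambi* signal by -0.21 ± 0.07 log2 units (SE), with an adjusted p of 0.567. It was the only 1 of the 10 genes at an unadjusted p under 0.05 in that comparison, against 7.87% of all probe sets.

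*Chrdl1*, which encodes chordin-like 1, a secreted protein that binds BMP4, had a log2 signal of 8.46 and 8.42 in the inferior retina after hyperoxia, against 8.33 and 8.56 in the control inferior retina. In the superior retina it was 8.37 and 8.37 after hyperoxia, against 8.37 and 8.18 in the control. The exposed arrays fell between the control arrays in the inferior retina, and the changes after hyperoxia were -0.01 and 0.09, with 95% intervals of -0.26 to 0.24 and -0.16 to 0.34.

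*Smoc1* encodes a secreted matricellular protein that antagonises BMP signalling in frog embryos. Its log2 signal was 7.83 and 7.83 in the inferior retina after hyperoxia, against 8.09 and 7.96 in the control inferior retina. The superior signal was 7.75 and 7.84 after hyperoxia, against 7.86 and 7.86 in the control. Exposed arrays were below control arrays in both regions, which among the 10 genes was seen only for *Smoc1*. The nearest superior arrays were close, at 7.84 and 7.86. All exposed arrays of both regions also lay below all control arrays, as they did for 745 of the 28853 probe sets. The change was -0.19 ± 0.09 log2 units (SE) in the inferior retina, a fold ratio of 0.874, and -0.06 ± 0.09 in the superior retina, a fold ratio of 0.957. Averaged over both regions it was -0.13, with an adjusted p of 0.594. At an unadjusted p under 0.05, 0 of the 10 genes changed in that average, against 8.98% of all probe sets. By the methods' t-test, which does not share the spread among probe sets, *Smoc1* had an unadjusted p under 0.05 for this average, for the inferior change and for the control regional difference, and it did not pass after adjustment.

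*Id1* and *Id3* encode helix-loop-helix proteins that bind other transcription factors without binding DNA, and both are direct targets of BMP signalling. *Id1* had a log2 signal of 6.73 and 6.59 in the inferior retina after hyperoxia, against 6.81 and 7.08 in the control inferior retina. Superior arrays had values of 6.75 and 6.78 after hyperoxia, against 6.67 and 6.78 in the control. The exposed arrays were below the control arrays in the inferior retina, and the superior groups overlapped. The inferior change was -0.29 ± 0.11 log2 units (SE), a fold ratio of 0.820, with an adjusted p of 0.474, and the superior change was 0.04 ± 0.11, with an adjusted p of 0.988.

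The inferior change of *Id1* was -0.08 within replicate 1 and -0.49 within replicate 2. Its highest signal lay on the control inferior array with the high lens transcripts, as for *Bmp2*, and without that array the change was -0.15, with an adjusted p of 0.675; the part of lens transcripts was not tested. The inferior retina had a higher *Id1* mean than the superior retina in control mice, by 0.22, and a lower one in hyperoxia-exposed mice, by a log2 difference of -0.11, with no overlap in either. *Bmp2* and *Id1* were the 2 of the 10 genes whose regional differences ran in opposite directions in this way, against 5.92% of all probe sets. The difference between the hyperoxia changes of *Id1* was -0.33 ± 0.16 (SE), with an adjusted p of 0.822.

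*Id3* had a log2 signal of 6.38 and 6.93 in the inferior retina after hyperoxia, against 6.66 and 6.88 in the control inferior retina. Superior values were 6.95 and 6.99 after hyperoxia, against 6.24 and 6.82 in the control. The exposed superior arrays were the highest of the 8 and were close together, whereas the replicates of the exposed inferior and control superior groups lay 0.556 and 0.579 log2 units apart. The superior change was 0.44 ± 0.22 (SE), a fold ratio of 1.36, with an adjusted p of 0.891, and the inferior change was -0.11 ± 0.22, with an adjusted p of 0.911. Within replicate 1 the superior change was 0.71, and within replicate 2 it was 0.17.

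Pigment epithelium transcripts moved with *Id3*. Of the 11 genes on that list, 9 had a higher mean in the superior retina after hyperoxia, 7 of them without overlap, with a median difference of 1.14 log2 units. The list was lowest on replicate 1 of the control superior retina, where *Id3* was lowest too. Without that array the superior change of *Id3* was 0.15 and the difference between its hyperoxia changes was -0.26, against -0.55 over all arrays; the part of pigment epithelium transcripts, and of the ciliary body and iris list that moved with them, was not tested.

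**Figure D4:**
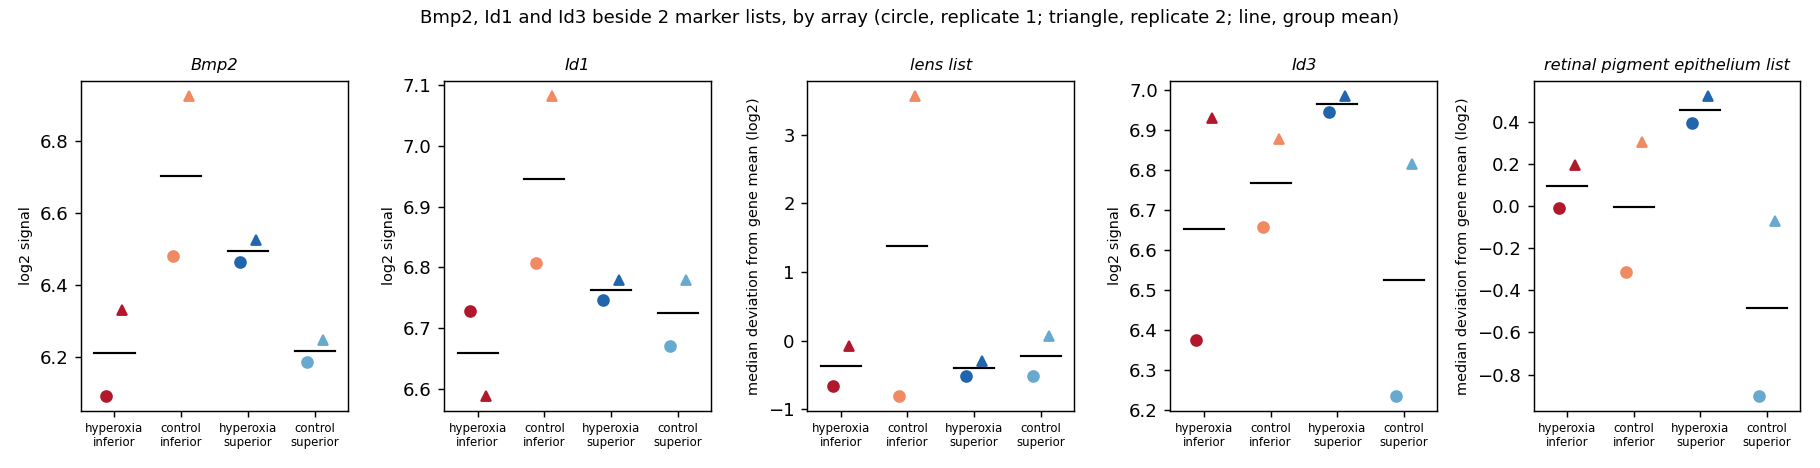
Log2 signal of *Bmp2*, *Id1* and *Id3* on each array, beside the median deviation of 9 lens genes and of 11 retinal pigment epithelium genes from their means (log2). Circles mark replicate 1, triangles replicate 2 and lines the group mean; the lens list stands at 3.57 on replicate 2 of the control inferior retina, the array on which *Bmp2* and *Id1* are highest.

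*Smad6* encodes an inhibitory SMAD that BMP signalling itself induces. Its log2 signal in hyperoxia-exposed mice was 6.36 and 6.42 in the inferior retina, against 6.12 and 6.05 in the superior retina. In control mice it was 6.20 and 6.21 in the inferior retina, against 6.30 and 6.12 in the superior retina. The exposed inferior arrays were the highest of the 8 and the exposed superior mean was the lowest, while the control groups overlapped. The regional difference was 0.30 ± 0.09 log2 units (SE) in hyperoxia-exposed mice, with a 95% interval of 0.09 to 0.52, and -0.01 ± 0.09 in control mice. The adjusted p-values were 0.45 and 0.997.

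After hyperoxia *Smad6* differed by 0.19 in the inferior retina, where the groups did not overlap, and by -0.12 in the superior retina, where they did. The difference between these changes was 0.31 ± 0.13 log2 units (SE), with a 95% interval of 0.01 to 0.61 and an adjusted p of 0.82. Within replicate 1 it was 0.34, and within replicate 2 it was 0.28. *Bmp2*, lower, and *Smad6*, higher, were the 2 of the 10 genes at an unadjusted p under 0.05 for the difference between the changes, against 6.04% of all probe sets. The reactive glia list, 9 genes with *Gfap* among them, was also highest on the exposed inferior arrays. Its median deviations there were 0.92 and 0.89, against -0.44 and -0.50 on the control inferior arrays. In the superior retina the list was higher after hyperoxia too, at 0.12 and 0.09 against -0.44 and -0.48, whereas the *Smad6* mean was lower. Over the 8 arrays *Smad6* had a Pearson r of 0.57 with this list and of -0.76 with the retina marker list. The part of both lists in the *Smad6* values was not tested.

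Among the targets in the set of 10 genes, *Id3* and *Smad6* had a matched promoter window and *Id1* had none. Both promoters are shown because SMADs act through such sequences. The hyperoxia changes of *Id3* and *Smad6* pointed in opposite directions in each region. Each window runs from 250 bases before to 50 bases after the gene's start, in the gene's direction, and was taken from RefSeq on GRCm38.p6. Capitals mark the SMAD box, GTCT or its reverse complement AGAC, searched on both strands.
Id3, chr4:136143572-136143871, plus strand: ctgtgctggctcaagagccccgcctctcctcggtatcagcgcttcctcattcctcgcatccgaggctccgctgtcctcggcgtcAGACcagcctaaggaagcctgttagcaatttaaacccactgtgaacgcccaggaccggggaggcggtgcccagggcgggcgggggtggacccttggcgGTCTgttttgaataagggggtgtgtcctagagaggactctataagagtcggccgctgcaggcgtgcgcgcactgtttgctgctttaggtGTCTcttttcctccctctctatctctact
Smad6, chr9:64022010-64022309, minus strand: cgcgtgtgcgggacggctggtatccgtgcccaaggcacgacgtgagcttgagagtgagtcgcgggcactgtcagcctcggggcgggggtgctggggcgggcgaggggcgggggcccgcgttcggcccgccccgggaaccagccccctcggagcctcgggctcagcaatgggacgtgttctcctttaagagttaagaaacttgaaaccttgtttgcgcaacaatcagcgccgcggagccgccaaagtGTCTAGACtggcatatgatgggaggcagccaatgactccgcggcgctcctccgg
The *Id3* window held 3 SMAD boxes. The *Smad6* window held 2, which met without overlap as the palindrome GTCTAGAC, starting 4 bases before the gene's start. A single box was in 88% of all 32851 promoter windows of 300 bases, whereas the palindrome was in 0.213%. Promoter windows were matched for 5 of the 10 genes, *Bmp4*, *Bmpr1a*, *Bmpr1b*, *Id3* and *Smad6*, and the palindrome was in none of the other 4. The GC-rich motif GGCGCC, which is its own reverse complement and to which SMAD1 binds, was in the *Bmpr1a* window once and in 11.9% of all windows. These matches describe the letters of the windows only.

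Overlap between arrays of both groups was also counted over the 10 genes. Hyperoxia arrays lay wholly above control arrays for 1 gene and wholly below them for 4 in the inferior retina, where 38.7% of the probe sets lay apart, and above for 3 and below for 2 in the superior retina, against 35.9%. Inferior arrays lay wholly above superior arrays for 3 genes and below for 4 in hyperoxia-exposed mice, against 38.5% of the probe sets, and above for 4 and below for 0 in control mice, against 34.2%. With 2 arrays per group, such separation was common over the whole array.

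A difference between the replicate numbers was seen for 4 of the 10 genes. *Bmp2*, *Bmp4* and *Id3* were higher on replicate 2 than on replicate 1 in all 4 groups, and *Bmpr1b* was lower on replicate 2 in all 4 groups, while 13.5% of all probe sets behaved in either way. With the replicate number as a block, 0 of the 10 genes passed the test in any comparison. The hyperoxia change had the same sign within both replicate numbers for 7 of the 10 genes in the inferior retina and for 8 in the superior retina, against 57.2% and 52.5% of all probe sets. The regional difference did so for 9 of the 10 genes in hyperoxia-exposed mice and for 5 in control mice, against 55.7% and 51.6%.

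Other genes of the pathway were taken from lists by role, of which 55 were measured and are described here. After hyperoxia 0 of the 55 were called in either region, against 0.492% of all probe sets in the inferior retina and 0.0173% in the superior retina. In the inferior against the superior retina of hyperoxia-exposed mice 1 of the 55 was called, lower, against 0.139% of all probe sets. In control mice 0 were, against 0% of all probe sets. The same shares stand beside the counts by role below. The called gene was *Tbx5*, the T-box transcription factor of the dorsal eye. With probe sets under a mean log2 signal of 6 left out, 0 of these pathway genes were called between the regions in exposed mice. Under that filter 0 were called over both oxygen conditions too. The dim probe sets left out included that of *Tbx5*, which was therefore not tested there. Its log2 signal in hyperoxia-exposed mice was 4.99 and 5.09 in the inferior retina, against 6.29 and 6.41 in the superior retina, and in control mice it was 5.33 and 5.34 in the inferior retina, against 6.48 and 6.32 in the superior retina. The regional difference was -1.32 log2 units in hyperoxia-exposed mice (adjusted p = 0.00649), -1.06 in control mice (adjusted p = 0.0731) and -1.19 over both (adjusted p = 0.00174), so that it passed in exposed mice and over both conditions. In exposed mice it did not pass without replicate 1 of the exposed inferior retina (adjusted p = 0.0678), without replicate 2 of that group (0.0974), without replicate 2 of the exposed superior retina (0.102) or by the methods' t-test (0.382), and over both conditions it did not pass by the methods' t-test (0.263). In control mice it passed with each array centred on its median (0.0398), with 1-symbol probe sets alone (0.0318) and without replicate 1 of the control inferior retina (0.0194). The ventral gene *Vax2* ran the opposite way, higher in the inferior retina by 1.43 log2 units in hyperoxia-exposed mice (adjusted p = 0.0335) and by 0.88 in control mice (adjusted p = 0.848). The cone opsins of the regional check did not pass. Their inferior minus superior differences in hyperoxia-exposed mice were 1.38 log2 units for *Opn1sw* (limma, adjusted p = 0.0603) and -0.73 for *Opn1mw* (adjusted p = 0.163). In control mice they ran in the same directions, at 0.82 for *Opn1sw* (adjusted p = 0.85) and -0.72 for *Opn1mw* (adjusted p = 0.83).

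Of the 13 other ligands, 9 had a higher mean in the inferior retina after hyperoxia, with a median change of 0.09 log2 units, and 6 had a higher mean in the superior retina, with a median of -0.01; 0 were called. *Bmp8b*, 1 of the 2 pathway genes with the smallest p in the superior retina, had a log2 signal of 6.60 and 6.32 after hyperoxia, against 6.21 and 6.08 in the control superior retina. The change was 0.31 ± 0.13 (SE), with an adjusted p of 0.869. The groups did not overlap.

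Among the 8 other receptors and co-receptors, *Acvr2b*, a type II receptor shared by activins and BMPs, had the smallest p after hyperoxia in the inferior retina. Its log2 signal was 8.83 and 8.69 in the inferior retina after hyperoxia, against 8.31 and 8.35 in the control inferior retina. The change was 0.43 ± 0.09 (SE), with an adjusted p of 0.103. It passed where the prior spread followed the signal level (adjusted p = 0.0371) and where dim probe sets, under a mean log2 signal of 6, were left out (adjusted p = 0.0403). In the superior retina it was 8.48 and 8.42 after hyperoxia, against 8.35 and 8.37 in the control. The exposed arrays were above the control arrays in both regions, and 0 of the 8 were called in either.

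Of the 17 antagonists and modulators, 10 had a higher mean after hyperoxia in the inferior retina and 12 in the superior retina, with medians of 0.02 and 0.05 log2 units and 0 called. *Bmp1*, a metalloprotease that cleaves procollagen and chordin and is not a ligand of the family, had a log2 signal of 8.21 and 8.36 in the inferior retina after hyperoxia, against 7.63 and 7.92 in the control inferior retina. The superior signal was 7.75 and 7.88 after hyperoxia, against 7.72 and 7.60 in the control. The exposed inferior arrays were the highest of the 8. The inferior change was 0.51 ± 0.12 (SE), with an adjusted p of 0.157, and the exposed regional difference was 0.47 ± 0.12, with an adjusted p of 0.332. *Fstl3*, a secreted binder of activins, had a superior change of 0.27 ± 0.10 (SE), with an adjusted p of 0.856.

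*Crim1*, a membrane protein with chordin-like repeats that tethers BMPs, had the second smallest p of the pathway genes between the control regions. Its log2 signal was 9.68 and 10.5 in the control inferior retina, against 9.46 and 9.46 in the control superior retina. The higher control inferior array was the one with the high lens transcripts. The difference was 0.63 ± 0.23 log2 units (SE), with an adjusted p of 0.916. Without that array it was 0.22, whereas without replicate 1 of the control inferior retina it was 1.04 and passed the test (adjusted p = 0.0298), as did the inferior change after hyperoxia (-0.88, adjusted p = 0.0392); the part of lens transcripts was not tested.

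The 7 SMADs and SMAD ubiquitin ligases differed by values between -0.10 and 0.11 log2 units after hyperoxia in the inferior retina and between -0.08 and 0.10 in the superior retina. Of the 10 other target genes, 6 had a lower mean in the inferior retina after hyperoxia and 8 in the superior retina, with medians of -0.05 and -0.07 log2 units, and 0 were called in either region. Among the 55 genes, *Acvr2b* and *Crim1* were the ones to pass a comparison of hyperoxia with control, under the alternatives given above.

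**Figure D5:**
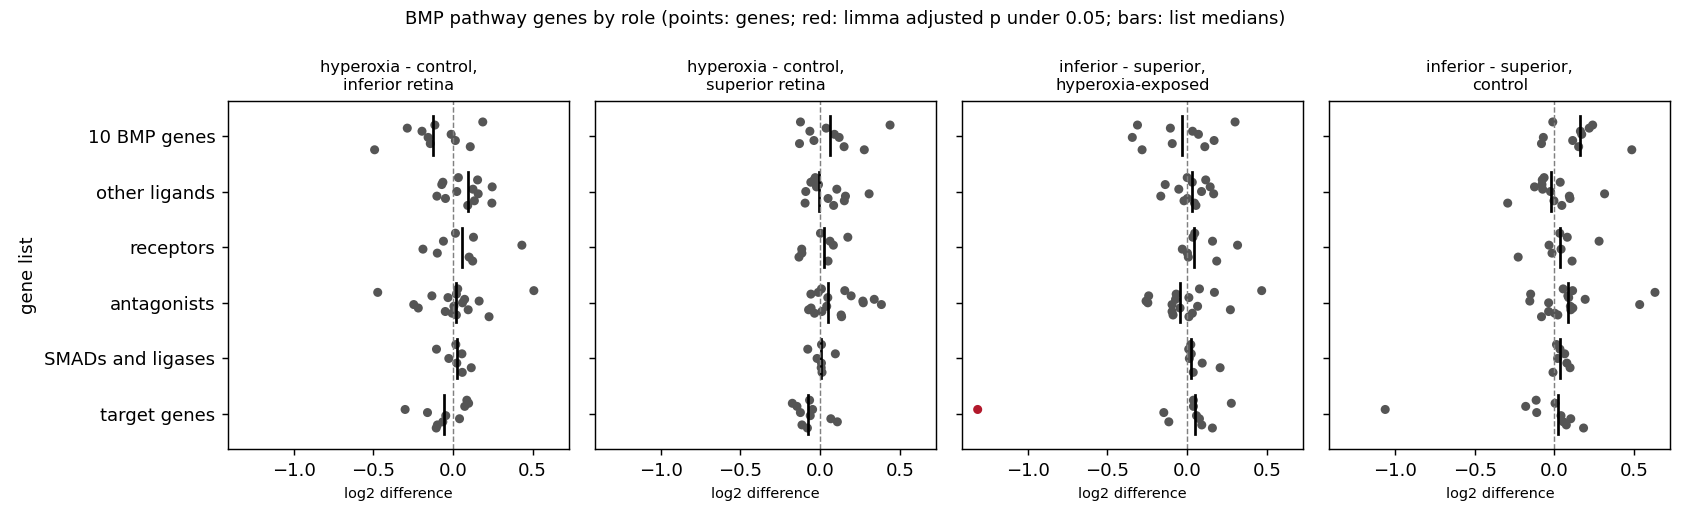
Log2 difference (horizontal axis) of the 10 BMP genes and of 55 other pathway genes by role, in the 4 comparisons named above the panels. Points are genes, bars list medians, and red marks an adjusted p under 0.05 (limma), which only *Tbx5* reached, at -1.32 in the hyperoxia-exposed retina.

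The genes whose signal over the 8 arrays was most like that of 3 of the BMP genes were found among 13892 genes with a mean log2 signal of 6 or more, as a description. For *Bmp2* they were *Ddr2*, a collagen receptor kinase (Pearson r = 0.979 over 8 arrays), *Selenbp1*, a selenium-binding protein (0.973), and *Acss3*, an acyl-CoA synthetase (0.961). Like *Bmp2*, all 3 had negative changes after hyperoxia in the inferior retina, -0.40, -0.25 and -0.36 log2 units, and positive ones in the superior retina, 0.16, 0.15 and 0.15. For *Bmp4* they were *Plpp1* (0.983), *Rab13* (0.978) and *Hdhd2* (0.975), with changes between 0.06 and 0.18 log2 units in both regions. For *Bmpr1b* they were *Pnp* (0.983), *Znrd2* (0.946) and *Gpatch1* (0.933), whose changes after hyperoxia were between -0.02 and 0.02 log2 units. The best of so many genes over 8 arrays will correlate highly, and the arrays share groups, replicate numbers and other tissue.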

How the data were processed

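RNA of 8 samples was measured on Mouse Gene 1.0 ST arrays. The authors summarised core probes in Partek after RMA background correction, by median polish, and deposited log2 values, which were taken unchanged; the sources used here give neither a Partek version nor a normalization between arrays. Of 28853 probe sets, 21789 had 1 gene symbol in the platform annotation, 1621 several and 5443 none listed.

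A mean for each group was fitted over all 8 arrays with limma 3.58.1 in R 4.3.3, on 4 residual degrees of freedom and 4.47 from the prior. Benjamini-Hochberg adjustment covered every probe set (threshold 0.05). With 2 arrays per group, their number limits the precision. The p-values rest on the spread between these pooled samples, moderated by that of all probe sets, and not on the spread between single animals. Fold ratio, fold difference and fold margin were computed as the methods define them. Correlations of deviations between same-numbered arrays were -0.02 to 0.14.

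The 10 genes and the lists were chosen with earlier results of these data known. All 10 were named, as were pathway genes past the test, the 2 with the smallest p in each comparison by oxygen or region, the check genes, and the 3 genes most like *Bmp2*, *Bmp4* and *Bmpr1b*. The fit was also run on simulated data with independent noise for each probe set, as a check of the computation only. Those data lacked the replicate and other-tissue differences of these arrays. The alternatives were other scaling, filters, arrays in the fit, priors, the methods' t-test, the replicate block and leaving out each array.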

Additional observations from a re-analysis of the deposited data

Results flagged for a closer look

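*Bmp2* stood out because its exposed arrays lay below the control arrays in the inferior retina and above them in the superior retina, and because the inferior arrays lay below the superior arrays after hyperoxia and above them in control mice. The difference between the hyperoxia changes was -0.77 log2 units (limma, adjusted p = 0.676). *Id1* stood out for its regional difference, which was without overlap and opposite in the oxygen conditions, with a difference between the hyperoxia changes of -0.325 (adjusted p = 0.822).

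Of the other pathway genes, the ligands *Bmp5* and *Gdf7* and the receptor *Acvr2b* had inferior arrays above the superior arrays after hyperoxia and below them in control mice. The nearest inferior and superior arrays were almost equal, at 7.1655 and 7.1622 for *Bmp5* after hyperoxia. In control mice they were at 7.2429 and 7.2431 for *Gdf7* and at 8.3507 and 8.3515 for *Acvr2b*. The difference between the hyperoxia changes was 0.338 for *Bmp5* (adjusted p = 0.837), 0.192 for *Gdf7* (adjusted p = 0.867) and 0.349 for *Acvr2b* (adjusted p = 0.79). *Hey1*, a Notch and BMP target, had exposed arrays above the control arrays in the inferior retina and below them in the superior retina, with a difference of 0.272 (adjusted p = 0.835). None of these differences passed the test. Over all probe sets, 5.92% had regional differences without overlap that were opposite in the oxygen conditions. Hyperoxia changes without overlap that were opposite in the regions were seen in 5.2%.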

How the results depend on the processing

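None of the 10 BMP genes passed the test under any of the 17 alternatives. The inferior change of *Bmp2* was -0.71 log2 units without replicate 1 of the control inferior retina. That fit left the array with the high lens transcripts as the only control inferior array. Without the array with the high lens transcripts the change was -0.27. Of 70 differences of these genes, 45 kept their sign under every alternative and 25 changed it under at least 1, none of them larger than 0.24 log2 units in size; apart from leaving out an array, 4 values turned, and the cause was not tested. The inferior change of *Bmpr1b* was -0.00334 after quantile normalization and -0.00898 after median centring, that of *Chrdl1* was 0.00586 and the control regional difference of *Smad6* 0.0312 after quantile normalization. Leaving out each array in turn gave, for the differences that turned, the following range over the 8 fits. For the inferior change after hyperoxia it was -0.29 to 0.00185 for *Bmpr1a*, -0.21 to 0.24 for *Bmpr1b*, -0.13 to 0.10 for *Chrdl1* and -0.39 to 0.16 for *Id3*. For the superior change it was -0.16 to 0.079 for *Bmpr1b*, -0.007 to 0.19 for *Chrdl1* and -0.0161 to 0.0928 for *Id1*. For the regional difference in exposed mice it was -0.0178 to 0.24 for *Bmp4*, -0.24 to 0.051 for *Bmpr1a* and -0.00981 to 0.078 for *Smoc1*. For the regional difference in control mice it was -0.11 to 0.34 for *Bmpr1b*, -0.0478 to 0.53 for *Id3* and -0.0981 to 0.0805 for *Smad6*. For the difference between the hyperoxia changes it was -0.17 to 0.0865 for *Bmp4*, -0.16 to 0.13 for *Bmpr1a*, -0.17 to 0.28 for *Bmpr1b* and -0.22 to 0.0133 for *Chrdl1*. For the hyperoxia change over both regions it was -0.22 to 0.00428 for *Bmp2*, -0.12 to 0.10 for *Bmpr1b*, -0.0726 to 0.0367 for *Bambi*, -0.018 to 0.097 for *Chrdl1* and -0.0124 to 0.0769 for *Smad6*. For the regional difference over both oxygen conditions it was -0.00897 to 0.21 for *Bmp2*, -0.0111 to 0.13 for *Id1* and -0.18 to 0.11 for *Id3*.

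The count of probe sets called moved more. For the inferior change (142) it was 259 with a mean log2 signal of 6 or more, 39 with the arrays of the comparison only, 2 by the methods' t-test, 374 with a variance trend, and 35 to 168 without 1 array. For the superior change (5) these were 12, 9 with 1-symbol probe sets, 0 by the methods' t-test, 21 with the trend, 2 with the replicate block, and 0 to 3 without 1 array. For the regional difference in exposed mice (40) they were 70 with the filter, 22 with the comparison's arrays, 0 by the methods' t-test, 84 with the trend, 25 with the replicate block, and 0 to 69 without 1 array. For that in control mice (0) they were 1 after median centring, 1 with 1-symbol probe sets, and 0 to 53 without 1 array. For the difference between the changes (1) they were 2 with the filter, 0 by the methods' t-test, 3 with the trend, and 1 to 30 without 1 array. For hyperoxia over both regions (164) they were 270, 2 by the methods' t-test, 291 with the trend, and 56 to 156 without 1 array. For region over both oxygen conditions (5) they were 14 after centring, 29 with the filter, 18 with 1-symbol probe sets, 0 by the methods' t-test, 44 with the trend, 1 with the replicate block, and 1 to 59 without 1 array.

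By the methods' t-test, unadjusted p-values were under 0.05 in 0 to 2 of the 10 genes in each comparison, against 4.54% to 8.88% of all probe sets. The replicate block changed no call of the 10 genes. The mean in place of the median put the lens list at 3.35 on replicate 2 of the control inferior retina and at -1.01 to 0.25 elsewhere. As each gene had 1 probe set, a mean over probe sets gave the same values. With 2 arrays per group, intervals of single genes could exclude 0 while none of the 10 passed after adjustment over all 28853 probe sets.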
